A study of Mus musculus with 16 samples.

Results

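The genes described here are S100a5, Kirrel2, Pcp4l1, Lrrc3b, Doc2g, Kcnn2 and Rasgrp4. They are listed as slow activity-dependent genes, whose transcripts follow the recent activity of olfactory sensory neurons over hours to days. They were taken by symbol from a list of 7, and 6 of the 7 were measured, each by 1 of the 22206 probe sets tested, in which 19505 genes are named by symbol. No probe set was found for Doc2g by symbol, gene identifier or accession, so it was not measured here.

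RNA came from olfactory mucosa of S100a5-tauGFP mice, in which green fluorescent protein (GFP) reports expression from the S100a5 gene. After dissociation, cells with GFP (GFP+) and without it (GFP-) were separated by sorting, and RNA of either fraction was hybridized to Clariom S arrays. The 24 mice were of both sexes and 7 to 12 weeks old, and were kept singly in chambers under clean air at 3.1 L/min for 40 h. From 26 h on, 12 of them received pulses of 1-pentanethiol, an odorous thiol, and the other 12 pulses of filtered air, called vehicle here, each lasting 10 s and given every 20 min. Mice were pooled by 3, which gave 4 odor pools and 4 vehicle pools, and each pool gave 1 GFP+ and 1 GFP- array. The 16 arrays therefore fell into 4 groups of 4: odor GFP+, odor GFP-, vehicle GFP+ and vehicle GFP-. All 4 groups carried the reporter. The sources used here do not give the construction of its allele or the number of copies carried. The series' design text names the odor bourgeonal, whereas its title and all sample labels name 1-pentanethiol, and the sample labels were followed.

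An olfactory sensory neuron transduces odor through cyclic AMP, which opens a cation channel and lets calcium in, and the calcium signal feeds into transcription. Immediate-early genes such as Fos answer within minutes and fade soon after. A slower set, to which the list assigns these genes, builds up with sustained activity. It includes calcium-binding proteins, ion channels and the adhesion molecules by which axons sort into glomeruli of the olfactory bulb. Because a neuron uses mainly a single odorant receptor, levels of the slow genes differ between neurons in a way that depends on the receptor.

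Promoter sequences were looked up in RefSeq (GRCm38.p6), where 5 of the 7 genes had a window; Kcnn2 and Rasgrp4 had none. They are shown for the 4 measured genes because those transcripts were all higher, in mean, in reporter-positive cells. Each sequence holds the 250 bases before the annotated start and, as a capital letter, the transcription start base, read 5′ to 3′ on the gene's strand: S100a5 at chr3:90608272-90608522 on the plus strand, and on the minus strand Kirrel2 at chr7:30457515-30457765, Pcp4l1 at chr1:171196268-171196518 and Lrrc3b at chr14:15438987-15439237.
S100a5: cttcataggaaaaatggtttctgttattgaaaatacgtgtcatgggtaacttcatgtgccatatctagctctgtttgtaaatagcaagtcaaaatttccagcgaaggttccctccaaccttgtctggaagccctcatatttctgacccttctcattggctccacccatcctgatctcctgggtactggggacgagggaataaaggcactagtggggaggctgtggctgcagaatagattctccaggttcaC
Kirrel2: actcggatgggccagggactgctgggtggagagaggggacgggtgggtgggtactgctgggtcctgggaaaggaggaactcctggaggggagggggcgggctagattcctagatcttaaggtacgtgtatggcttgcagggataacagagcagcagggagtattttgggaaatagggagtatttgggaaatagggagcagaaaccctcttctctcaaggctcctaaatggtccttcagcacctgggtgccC
Pcp4l1: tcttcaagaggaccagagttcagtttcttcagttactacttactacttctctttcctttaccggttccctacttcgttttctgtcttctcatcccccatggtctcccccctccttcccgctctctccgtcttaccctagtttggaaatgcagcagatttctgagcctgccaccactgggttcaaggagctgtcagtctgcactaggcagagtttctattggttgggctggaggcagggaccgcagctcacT
Lrrc3b: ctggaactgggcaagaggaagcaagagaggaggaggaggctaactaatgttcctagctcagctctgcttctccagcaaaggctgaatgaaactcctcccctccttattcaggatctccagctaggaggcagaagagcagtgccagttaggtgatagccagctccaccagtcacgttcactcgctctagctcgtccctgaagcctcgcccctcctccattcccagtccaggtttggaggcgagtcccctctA
The windows of 300 bases in the table, which reach 50 bases past the start, were searched on both strands for the full cyclic AMP response element TGACGTCA, its overlapping shorter core TGACG, and the Ebf palindrome TCCCNNGGGA, a textbook element of olfactory neuron genes. None of the 5 windows (Doc2g included) held any of the 3 motifs, which occur in 1.79%, 20.8% and 0.904% of the 32851 windows of the table. No match says only that these letters are not in this window. The S100a5 promoter had a GC content of 46.3% and 3 CpG dinucleotides, below the medians of 52.7% and 7 over all windows. Those of Kirrel2, Pcp4l1 and Lrrc3b had 59.7%, 53.3% and 57.0% GC, with 8, 8 and 9 CpG.

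Signal is given as deposited, on a log2 scale, on which 1 unit is a doubling. Omp, the olfactory marker protein of mature neurons, stood at 18.1 to 18.4 on all arrays and differed between GFP+ and GFP- cells by 0.05 ± 0.10 with vehicle and 0.03 ± 0.10 with odor (SE). Negative control entries, which give the level of nonspecific signal, had medians of 5.99 to 6.48 on 15 arrays and of 7.28 on the GFP+ array of vehicle pool 2. S100a5, Kirrel2, Pcp4l1, Lrrc3b and Kcnn2 lay 6.28 to 10.74 above the mean negative control median of their group, and Rasgrp4 lay 2.69 to 3.35 above it. Differences below are ± SE from limma with n = 4 arrays per group, adjusted p-values are Benjamini-Hochberg values over the 22206 probe sets, and the threshold was 0.05. The number of arrays limits the precision, and fewer cells of a type and less RNA per cell cannot be told apart in such samples.

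S100a5 encodes a small EF-hand calcium-binding protein. The reporter reads expression from this gene, so the S100a5 difference between fractions checks the sort and is no finding. In the vehicle pools its signal was 16.55, 16.62, 16.67 and 16.82 in GFP+ cells of pools 1 to 4, and 15.78, 15.88, 15.70 and 15.81 in GFP- cells. In the odor pools it was 17.11, 17.11, 17.07 and 17.11 in GFP+ cells and 16.36, 16.18, 15.77 and 16.12 in GFP- cells. The fractions did not overlap, and the GFP- cells still carried a high S100a5 signal. The vehicle pools differed by 0.87 ± 0.12 between fractions (1.83-fold, adjusted p = 3.51e-05). For the odor pools the value was 0.99 ± 0.12 (1.99-fold, adjusted p = 7.79e-06). Within the odor GFP+ group the 4 arrays spread by an SD of 0.02, against 0.12 in vehicle GFP+ cells and 0.25 in odor GFP- cells.

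**Figure D1:**
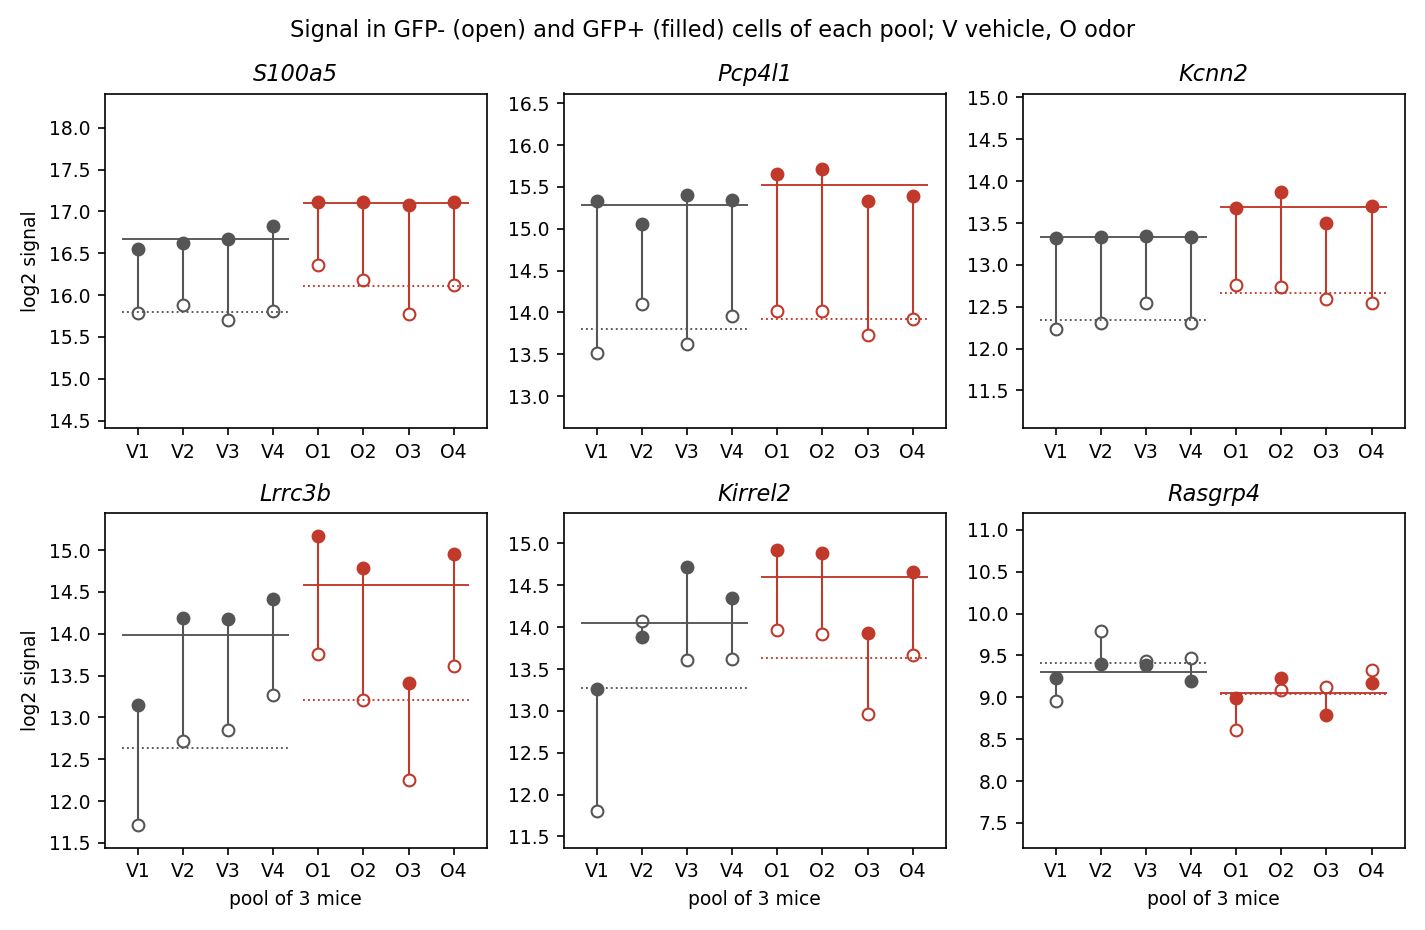
Log2 signal (vertical axes of equal span, each centred on its own gene) of the 6 measured genes in GFP- (open) and GFP+ (filled) cells of the 8 pools of 3 mice. V is vehicle, O is odor, a vertical line joins the fractions of a pool, and horizontal lines are group means (dotted GFP-, solid GFP+). The GFP+ value is the higher in 8 of 8 pools for S100a5, Pcp4l1, Kcnn2 and Lrrc3b, in 7 for Kirrel2 and in 3 for Rasgrp4.

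Pcp4l1 and Kcnn2 were higher in GFP+ cells in both sorts. Pcp4l1 encodes a small relative of the calmodulin-binding protein Pcp4. Its signal in the vehicle pools was 15.34, 15.05, 15.40 and 15.35 in GFP+ cells against 13.51, 14.10, 13.62 and 13.96 in GFP- cells, and in the odor pools 15.65, 15.72, 15.34 and 15.39 against 14.02, 14.02, 13.73 and 13.93. The groups did not overlap, and the smallest gap within a pool was 0.95, in vehicle pool 2. In the vehicle sort Pcp4l1 differed by 1.49 ± 0.15 (2.80-fold, adjusted p = 6.67e-07). In the odor sort it differed by 1.60 ± 0.15 (3.03-fold, adjusted p = 2.66e-07). In each of the 8 pools it was larger than the S100a5 difference of the same pool.

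Kcnn2 encodes the small-conductance calcium-activated potassium channel SK2, which hyperpolarizes neurons after calcium entry. In the vehicle pools its signal was 13.33, 13.34, 13.34 and 13.33 in GFP+ cells against 12.23, 12.30, 12.55 and 12.30 in GFP- cells, and in the odor pools 13.67, 13.87, 13.50 and 13.71 against 12.76, 12.74, 12.59 and 12.54. The vehicle GFP+ arrays agreed to an SD of 0.0062, and neither sort had overlapping groups. The vehicle sort gave a Kcnn2 difference of 0.99 ± 0.11 (1.98-fold, adjusted p = 3.05e-06). The odor sort gave 1.03 ± 0.11 (2.04-fold, adjusted p = 1.86e-06).

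Lrrc3b and Kirrel2 are membrane proteins with adhesion-type domains and varied far more between pools than S100a5, Pcp4l1 and Kcnn2. Lrrc3b encodes a membrane protein with leucine-rich repeats. Its signal in the vehicle pools was 13.15, 14.19, 14.18 and 14.42 in GFP+ cells and 11.72, 12.72, 12.85 and 13.26 in GFP- cells, and in the odor pools 15.16, 14.79, 13.41 and 14.95 against 13.76, 13.21, 12.25 and 13.62. Vehicle pool 1 and odor pool 3 were low in both fractions, so that the groups overlapped although GFP+ was the higher in every pool. Pool by pool the difference stayed between 1.15 and 1.57. By group means, Lrrc3b was higher in GFP+ cells of the vehicle sort by 1.35 ± 0.42 (2.54-fold, adjusted p = 0.0284). The odor sort gave 1.37 ± 0.42 (2.58-fold, adjusted p = 0.025). With the pool as a block, since both fractions of a pool come from the same mice, the adjusted p was 1.03e-05 and 9.16e-06. Without the block the calls depended on single pools: the adjusted p was 0.0979, 0.086 and 0.0562 in the vehicle sort without vehicle pool 2, 3 or 4, and 0.0581, 0.108 and 0.0677 in the odor sort without odor pool 1, 2 or 4. Without the GFP+ array of vehicle pool 2 alone it was 0.0634 in the vehicle sort, and with receptor medians set equal 0.0741.

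Kirrel2 encodes a homophilic adhesion molecule of the immunoglobulin superfamily, known for activity-dependent sorting of olfactory axons. Its signal in the vehicle pools was 13.26, 13.88, 14.72 and 14.35 in GFP+ cells and 11.80, 14.07, 13.61 and 13.63 in GFP- cells, and in the odor pools 14.93, 14.89, 13.93 and 14.66 against 13.96, 13.91, 12.97 and 13.67. The 4 odor pools agreed closely in the difference between fractions (0.96, 0.97, 0.97 and 1.00, SD 0.015), whereas the vehicle pools ran from -0.18 in pool 2 to 1.46 in pool 1 (SD 0.71). In the vehicle sort Kirrel2 differed by 0.77 ± 0.42 (1.71-fold, adjusted p = 0.206) and did not pass the threshold. Nor did it in the odor sort, with 0.98 ± 0.42 (1.97-fold, adjusted p = 0.103). With the pool as a block Kirrel2 passed as higher, with an adjusted p of 0.0249 and 0.00732. Setting array medians equal gave 1.12 in the vehicle sort (adjusted p = 0.026) and 1.30 in the odor sort (adjusted p = 0.0125). It also passed in the odor sort without vehicle pool 1 (adjusted p = 0.0145) and when only the 8 odor arrays were fitted (adjusted p = 0.0268).

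**Figure D2:**
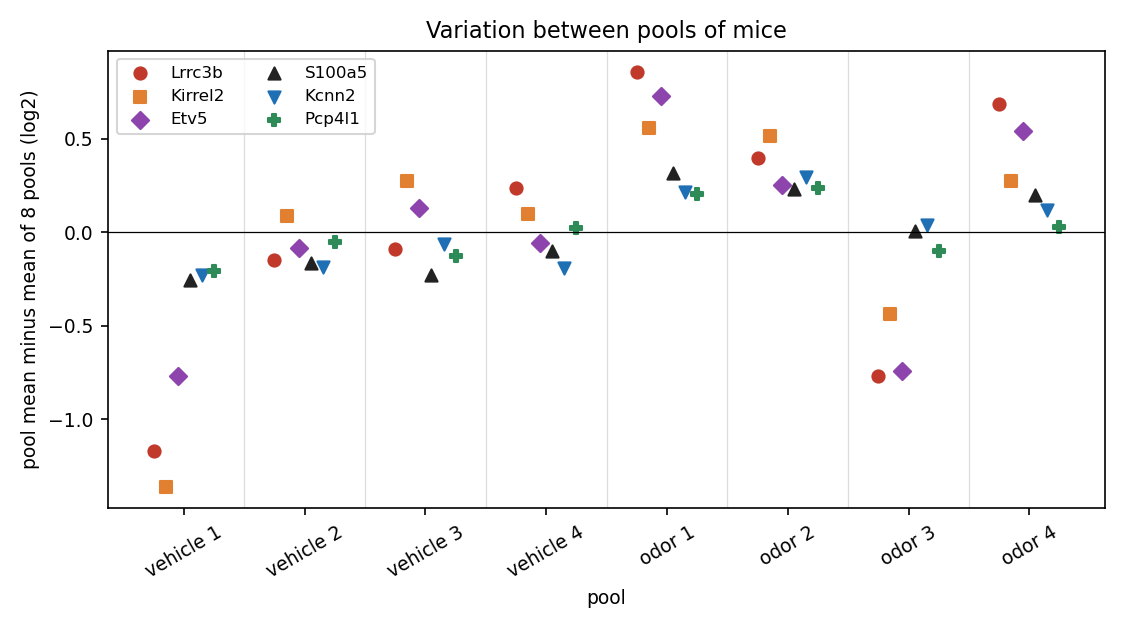
Mean of the GFP+ and GFP- log2 values of each pool minus the mean over the 8 pools (vertical axis) for 5 of the genes and for Etv5, by pool of 3 mice; each point is 1 gene in 1 pool. Vehicle pool 1 and odor pool 3 lie low for Lrrc3b, Kirrel2 and Etv5. S100a5, Kcnn2 and Pcp4l1 stay close together in every pool. They too are lowest of their stimulus in vehicle pool 1 and odor pool 3, over a smaller span. Etv5 was picked for its likeness to Lrrc3b on these arrays, so its low pools are no separate result.

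Across the 8 pools the mean of both fractions spanned 2.03 for Lrrc3b (4.07-fold) and 1.92 for Kirrel2 (3.78-fold), against 0.57 for S100a5, 0.52 for Kcnn2, 0.45 for Pcp4l1 and 0.79 for Rasgrp4. Lrrc3b and Kirrel2 were both at their lowest in vehicle pool 1, with pool means of 12.43 and 12.53, and next lowest in odor pool 3, with 12.83 and 13.45. Vehicle pool 1 was also the lowest vehicle pool for S100a5 (16.16), Kcnn2 (12.78) and Pcp4l1 (14.43). Odor pool 3 was their lowest odor pool (16.42, 13.05 and 14.53). After group means were subtracted, Lrrc3b and Kirrel2 correlated with r = 0.813 over the 16 arrays. This is a description, since the 2 arrays of a pool share their mice. The r of 0.813 was the highest among pairs of the 6 genes, followed by 0.718 for Kirrel2 with Pcp4l1 and 0.589 for S100a5 with Lrrc3b. It was 0.501 for S100a5 with Pcp4l1 and 0.202 for S100a5 with Kcnn2.

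Rasgrp4, which encodes a Ras guanyl nucleotide-releasing protein best known from mast cells, did not pass the threshold in either sort. In the vehicle pools its signal was 9.23, 9.39, 9.39 and 9.20 in GFP+ cells against 8.96, 9.79, 9.44 and 9.47 in GFP- cells, and it was 9.0, 9.23, 8.79 and 9.17 against 8.62, 9.09, 9.13 and 9.32 in the odor pools. GFP+ was the higher in 3 of 8 pools. The differences were -0.11 ± 0.18 (95% interval -0.48 to 0.26, adjusted p = 0.699) and 0.01 ± 0.18 (-0.36 to 0.38, adjusted p = 0.979), and their sign turned with the scaling, to 0.24 with array medians set equal in the vehicle sort and to -0.05 with receptor medians set equal in the odor sort. Mast cell markers were lower in GFP+ cells for 4 of 10 measured genes (Cpa3, Hdc, Kit and Ms4a2) in each sort. Of all probe sets, 11.8% were lower in the vehicle and 11.9% in the odor sort. The other 6 markers did not pass, and the median difference of the 10 was -0.05 with vehicle and 0.02 with odor. Kit is also listed here as a marker of globose basal cells. The linear signals of the 10 mast cell markers were also summed, and the log2 of the sum was taken. In the vehicle sort it was 11.26 to 12.17 in the GFP- and 8.84 to 9.15 in the GFP+ fraction. In the odor sort it was 11.17 to 12.83 against 8.89 to 9.34. The part of mast cells in the Rasgrp4 signal was not tested.

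In total, 4 of the 6 measured genes (S100a5, Pcp4l1, Kcnn2 and Lrrc3b) were higher in GFP+ cells of the vehicle sort, where 9.34% of all probe sets were called higher, and the same 4 in the odor sort, where 11.3% were. S100a5 belongs to this count because it was sorted for. The groups did not overlap for S100a5, Pcp4l1 and Kcnn2 in either sort, against 11.7% and 14.4% of all probe sets that were higher without overlap. The median difference of the 6 genes was 0.93 in the vehicle and 1.01 in the odor pools, and that of all probe sets 0.11 and 0.13. Larger differences than that of Pcp4l1 were found for 1.18% of all probe sets in the vehicle sort and 1.02% in the odor sort, and for S100a5 the shares were 2.63% and 1.90%. The number of probe sets called depended on scaling: 2074 were higher and 2617 lower in the vehicle sort, but 13003 and 2008 with array medians set equal, a setting that shifted all differences by a median of 0.35, and 515 and 3237 with receptor medians set equal, with a shift of -0.23. S100a5, Pcp4l1 and Kcnn2 passed as higher under all 18 alternatives run for each sort, with differences of 0.64 to 1.32, 1.26 to 1.93 and 0.76 to 1.36.

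**Figure D3:**
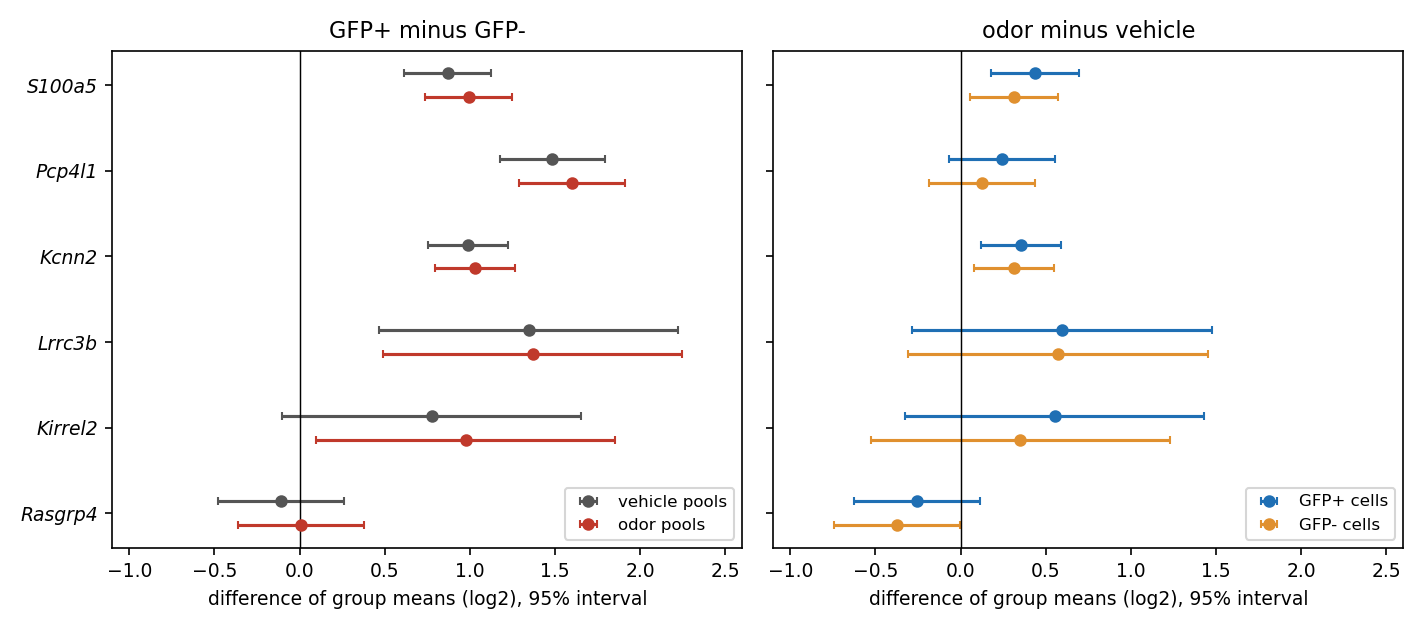
Differences of group means on the log2 scale with 95% intervals from limma (n = 4 arrays per group); left, GFP+ minus GFP- cells in vehicle and odor pools; right, odor minus vehicle in GFP+ and GFP- cells. Left intervals of S100a5, Pcp4l1, Kcnn2 and Lrrc3b lie above 0, as does that of Kirrel2 in the odor pools; right intervals lie above 0 for S100a5 and Kcnn2 and below 0 for Rasgrp4 in GFP- cells, before adjustment for the number of probe sets.

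For S100a5, Pcp4l1, Kcnn2, Lrrc3b and Kirrel2 the group means had the same order, from vehicle GFP- over odor GFP- and vehicle GFP+ to odor GFP+. The arrays of odor GFP- and vehicle GFP+ cells, the middle steps, did not overlap for S100a5 (highest 16.36 against lowest 16.55), Pcp4l1 (14.02 against 15.05) and Kcnn2 (12.76 against 13.33), a step that was not tested. They overlapped for Lrrc3b and Kirrel2. The outer steps are the odor effects described next.

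The design asks whether the odor raised these transcripts in either fraction. In GFP+ cells none of the 6 genes passed, where 0.0766% of all probe sets (17, all higher) did; 2 of the 6 had an unadjusted limma p under 0.05, against 7.15% of all probe sets. S100a5 was 0.44 ± 0.12 higher with the odor (1.35-fold, 95% interval 0.18 to 0.69, adjusted p = 0.432), and the 4 odor arrays lay above the 4 vehicle arrays. Kcnn2 was 0.36 ± 0.11 higher (1.28-fold, 0.12 to 0.59, adjusted p = 0.499), also without overlap. Of all probe sets, 1.75% were higher without overlap in this comparison. Pcp4l1 differed by 0.24 ± 0.15, Lrrc3b by 0.59 ± 0.42, Kirrel2 by 0.55 ± 0.42 and Rasgrp4 by -0.26 ± 0.18, with adjusted p-values of 0.778 to 0.817 and groups that overlapped. Single pools moved both larger values: Lrrc3b was 0.32 without vehicle pool 1 and 0.98 without odor pool 3, and Kirrel2 was 0.29 without vehicle pool 1.

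In GFP- cells the picture was similar in size. None of the 6 passed, where 0.0495% of all probe sets (11) did, and 3 of the 6 had an unadjusted limma p under 0.05, against 2.61% of all probe sets. S100a5 differed by 0.31 ± 0.12 (95% interval 0.06 to 0.57), Kcnn2 by 0.31 ± 0.11 (0.08 to 0.55) and Rasgrp4 by -0.37 ± 0.18 (-0.75 to -0.003). Lrrc3b differed by 0.57 ± 0.42, Kirrel2 by 0.35 ± 0.42 and Pcp4l1 by 0.13 ± 0.15, and the adjusted p was 1 for all 6 genes. The groups overlapped for every gene. The Kirrel2 difference rested on vehicle pool 1 and was -0.14 without it, and that of Lrrc3b was 0.27 without the same pool and 0.89 without odor pool 3.

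Whether the gap between fractions itself widened with the odor was tested as the difference of the differences. It was 0.12 ± 0.17 for S100a5, 0.11 ± 0.21 for Pcp4l1, 0.04 ± 0.16 for Kcnn2, 0.02 ± 0.59 for Lrrc3b, 0.20 ± 0.59 for Kirrel2 and 0.12 ± 0.25 for Rasgrp4. The adjusted p was 0.999 for each, none of the 6 had an unadjusted limma p under 0.05 (against 4.65% of all probe sets), and 0.063% of all probe sets (14) passed. The 95% interval for Kcnn2, the narrowest, ran from -0.29 to 0.38, and those of Lrrc3b and Kirrel2 from -1.22 to 1.27 and -1.04 to 1.44. This fit does not use the pool that fractions share, and within pools the Lrrc3b difference between fractions had SDs of 0.14 (vehicle) and 0.17 (odor).

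Averaging the fractions of each pool made the pool the replicate, 4 odor against 4 vehicle. S100a5 was 0.37 ± 0.10 higher in odor pools (16.42 to 16.73 against 16.16 to 16.32) and Kcnn2 0.33 ± 0.09 higher (13.05 to 13.30 against 12.78 to 12.94), both without overlap, as were 1.42% of all probe sets in that direction. Lrrc3b differed by 0.58 ± 0.37, Kirrel2 by 0.45 ± 0.34, Pcp4l1 by 0.18 ± 0.11 and Rasgrp4 by -0.31 ± 0.13, with overlapping pools. Without vehicle pool 1 Kirrel2 was 0.073 and Lrrc3b 0.29, and without odor pool 3 Lrrc3b was 0.94. No gene passed (adjusted p = 1 for all 6; 0.018% of all probe sets, 4, passed), and 3 of the 6 had an unadjusted limma p under 0.05 against 3.68% of all probe sets. The median over the 6 genes was 0.35, and over all probe sets 0.01. The comparisons of GFP+ cells, GFP- cells and pool means share their arrays and are not independent of each other.

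Relatives of the genes went both ways. Of 33 measured relatives (S100, Kirrel, Pcp4, Lrrc3, Doc2, SK channel and RasGRP families), the vehicle sort had 2 as higher in GFP+ cells and 11 as lower, where 9.34% of all probe sets were higher and 11.8% lower. The odor sort had 6 and 11, where 11.3% were higher and 11.9% lower. The median difference of the relatives was -0.11 and 0.09, against 0.11 and 0.13 for all probe sets. Many relatives had little signal, and a group is called near background here where all 4 arrays lay under the negative control median plus 1 SD of the negative controls. Kcnn1, an SK channel subunit measured above background in all groups, was higher in GFP+ cells of the odor pools by 0.44 ± 0.14. In the vehicle pools its mean was 12.31 in GFP+ against 11.94 in GFP- cells, and it did not pass. Kcnn3 and Kcnn4, the other relatives of Kcnn2, were near background in all 4 groups although Kcnn4 passed as lower in both sorts and Kcnn3 as higher in the odor pools. The same held for Doc2b, a calcium sensor for vesicle release and relative of the unmeasured Doc2g, which passed as higher in the odor pools, for Rasgrp3, which passed as lower there, and for Nrgn, which passed as lower in the vehicle pools. Rasgrp1 and Rasgrp2, known from lymphocytes and platelets, passed as lower in both sorts (-2.77 ± 0.22 and -1.37 ± 0.17 in the vehicle pools), with GFP+ groups near background, which limits what these sizes show. Gap43, which shares its calmodulin-binding motif with the Pcp4 family and marks growing axons, was above background in all groups and lower by -2.50 ± 0.36 and -2.12 ± 0.36. Pcp4 itself was near background in all groups and did not pass. Kirrel3, which neurons express in a pattern complementary to Kirrel2, did not pass either (-0.34 ± 0.21 and -0.40 ± 0.21).

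S100a5 lies in a cluster of S100 genes on chromosome 3, and its neighbours differed from it and from each other. S100a3, 3 places away in the order of S100 genes, passed as higher in GFP+ cells in both sorts, by 0.61 ± 0.17 with vehicle (adjusted p = 0.0144) and 1.07 ± 0.17 with odor (adjusted p = 0.000121). All 4 of its groups were near background, 0.36 to 1.15 above the mean negative control median, which limits what these sizes show. In the odor sort its signal was 7.41, 7.69, 7.25 and 7.67 in GFP+ against 6.35, 6.47, 6.26 and 6.64 in GFP- cells. With the odor, S100a3 differed by 0.46 ± 0.17 in the GFP+ fraction (adjusted p = 0.579) and by 0.00 ± 0.17 in the GFP- fraction. The gap between fractions differed by 0.46 ± 0.24 (adjusted p = 0.999). S100a4 and S100a6, which flank S100a5, were lower in GFP+ cells, by -1.97 ± 0.31 and -1.98 ± 0.34 in the vehicle pools. Their vehicle GFP+ means of 6.62 and 7.14 were near background (mean negative control median 6.55), which limits what these sizes show. S100a8 and S100a9, the calprotectin subunits of neutrophils, were lower by -8.08 ± 0.36 and -7.92 ± 0.39 in the vehicle pools, with 3 and 2 of the 4 GFP+ arrays within that range of background. S100a16 was higher in the vehicle pools by 0.51 ± 0.13 (adjusted p = 0.00704) with a signal of 5.62 against 5.11, below the negative control medians.

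**Figure D4:**
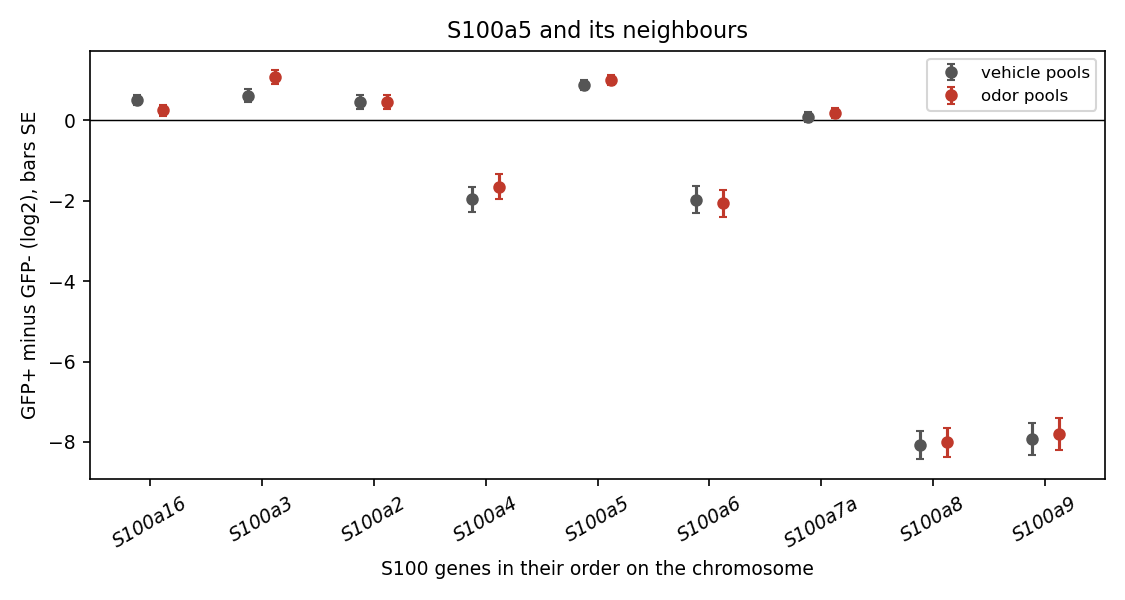
GFP+ minus GFP- difference on the log2 scale (vertical axis; bars are SE from limma, n = 4 arrays per group) for S100a5 and its neighbours in their order on chromosome 3, in vehicle and odor pools. S100a5 and S100a3 lie above 0 in both sorts, as do S100a16, S100a2 and S100a7a, whose signals are under the negative control medians; S100a4, S100a6, S100a8 and S100a9 lie below.

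Other genes listed as activity-dependent in olfactory neurons gave a mixed picture. Of 11 measured, the vehicle sort had 4 as higher in GFP+ cells (Epha5, Pcdh10, Pcdh17 and Sema7a), 1 as lower (Rgs2) and 6 that did not pass, where 9.34% of all probe sets were higher and 11.8% lower; Camk2n1 joined the higher ones in the odor pools. Epha5, an ephrin receptor, was higher by 0.93 ± 0.14 and 0.95 ± 0.14, close in size to Kcnn2. Rgs2, a regulator of G protein signalling that leukocytes also express, was lower by -5.36 ± 0.41 and -5.69 ± 0.41, with GFP+ groups near background. With the odor, 3 of the 11 passed as higher in GFP+ cells, where 0.0766% of all probe sets passed: the protocadherin Pcdh10 by 3.99 ± 0.38 (adjusted p = 0.000122), the calmodulin kinase inhibitor Camk2n1 (near background on 3 of 4 vehicle GFP+ arrays) by 2.68 ± 0.28 and the semaphorin Sema7a by 1.39 ± 0.15. Pcdh10 and Sema7a passed in GFP- cells as well, by 3.28 ± 0.38 and 0.97 ± 0.15. S100a5 differed by 0.44 and 0.31 in the same fractions, and the difference between genes was not tested.

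Immediate-early genes, the fast arm of the activity response, were in part lower in GFP+ cells. Of 21 probe sets for 19 genes, the vehicle sort had 11 and the odor sort 12 as lower in GFP+ cells, where 11.8% and 11.9% of all probe sets were, and the others did not pass, with differences of up to 0.35 and 0.41. Those lower in both sorts include Fos, with -4.64 ± 0.70 in the vehicle sort and -5.06 ± 0.70 in the odor sort, and with 2 and 1 of the 4 GFP+ arrays near background. Markers of other cells moved with the same sort: all 9 measured neutrophil markers were lower in GFP+ cells of either sort. The log2 of their summed linear signal in the vehicle sort was 19.02 to 19.54 in the GFP- and 10.25 to 11.59 in the GFP+ fraction. Of 12 markers of immature neurons, 7 were lower in the vehicle and 6 in the odor pools. Of 12 markers of mature neurons 2 and 3 were higher, where 9.34% and 11.3% of all probe sets were. The median difference of these markers was 0.18 in either sort, against 0.11 with vehicle and 0.13 with odor for all probe sets. The log2 of their summed linear signal in the vehicle sort was 20.63 to 20.66 in the GFP- and 20.60 to 20.81 in the GFP+ fraction. In the odor sort it was 20.61 to 20.70 against 20.78 to 20.82. With the mean of the mature neuron markers set equal on all arrays, S100a5, Pcp4l1 and Kcnn2 passed with differences of 0.67, 1.29 and 0.79 in the vehicle sort and of 0.75, 1.35 and 0.78 in the odor sort, and Lrrc3b did not (1.15 and 1.12, adjusted p = 0.0686 and 0.0705). The part of other cells in the remaining differences was not tested.

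The probe sets most like each gene over the 16 arrays were found by Pearson correlation among those with 1 gene symbol, as a description that the difference between fractions dominates. For S100a5 they were Dyrk4 (r = 0.969), Ndfip1 (0.950), the calcium-activated potassium channel subunit Kcnmb3 (0.946), the G protein regulator Rgs7 (0.944) and the synaptic vesicle protein Syngr1 (0.935). All 5 passed as higher in GFP+ cells in both sorts, from 0.28 ± 0.09 for Ndfip1 to 1.25 ± 0.20 for Kcnmb3 in the vehicle pools. They were picked for likeness to S100a5 on these same arrays, so their passing is no separate result. The probe sets most like Pcp4l1 were 3 odorant receptors, Olfr644 (r = 0.977), Olfr1382 (0.975) and Olfr281 (0.970). Those most like Kcnn2 were Slc6a17 (0.973), Dyrk4 (0.973) and Pde1c (0.964). Rasgrp4 was most like Daglb (0.769), Fancb (0.760) and Nhlrc2 (0.753).

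Lrrc3b was most like Etv5 (r = 0.971), an ETS transcription factor, and next Trim45 (0.925) and Dph3 (0.923). With group means subtracted, Etv5 remained the most like Lrrc3b among all these probe sets (r = 0.939). Etv5 was also among the 3 most like Kirrel2 (0.869), with Pitpnm3 (0.896) and Cd163 (0.845). Its pool means were 11.69, 12.37, 12.59 and 12.40 in vehicle pools 1 to 4. Among odor pools they were 11.72 in pool 3 and 12.71 to 13.18 in the others, so vehicle pool 1 and odor pool 3 were the lowest for Etv5 as for Lrrc3b and Kirrel2. Etv5 was higher in GFP+ cells by 1.35 ± 0.34 (adjusted p = 0.00818) and 1.34 ± 0.34 (adjusted p = 0.00873). Etv5 was picked for its likeness to Lrrc3b on the same arrays, so neither its low pools nor its difference between fractions is a separate result. The genes most like Kirrel2 with group means subtracted were Kcnmb3 (0.898), Metrnl (0.850) and S100a3 (0.835).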

How the data were processed

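RNA of GFP+ and GFP- cells from 8 pools of 3 mice was measured on 16 Clariom S arrays, from 50 to 100 ng of total RNA per the labels' protocols. The deposited values are log2 signals per probe set, for which the submitters' processing notes name Affymetrix Expression Console; its version, and how it summarized and normalized the arrays, is not given in the sources used here. Of 28846 features, 6640 control entries were left out and 22206 probe sets were tested, 19572 of them with 1 gene symbol in the annotation supplied. The table reaches 18.85, and no filter or further scaling was applied. Array medians over the tested probe sets were 7.71 to 7.78 in GFP- and 7.38 to 7.45 in GFP+ cells.

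A limma 3.58.1 model (R 4.3.3; lmFit and eBayes, two-sided, 16.66 total degrees of freedom) estimated the means of the 4 groups from the 16 arrays together and gave 5 of the comparisons. A sixth comparison was fitted to the 8 pool means. A Benjamini-Hochberg adjusted p under 0.05 was the threshold. The fit was tested on simulated data.

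Both arrays of a pool come from the same mice by the labels, and their deviations from group means correlated across probe sets with r of 0.0119 to 0.224. Odor and vehicle pools with the same number correlated over 0.1 in 4 of 4 pairs in GFP- cells (0.186 to 0.290) and in 2 of 4 pairs in GFP+ cells (0.0311 to 0.256), so the number was taken to pair pools in GFP- cells. The odor differences in GFP- cells given above were fitted without this pairing. The labels do not say whether pools were processed on separate days.

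The 7 genes, the lists of relatives, of other activity-dependent genes and of cell markers, and the alternatives were chosen with earlier results of these data known. The rule for naming named the 7 genes, relatives that passed in a sort, the 3 probe sets most like each gene (5 for S100a5), Omp and Gap43; other genes with values were chosen after their values were seen. Promoters came from RefSeq (GRCm38.p6) and were read with Python 3.11.15. Protein sequences were not used here.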

Additional observations from a re-analysis of the deposited data

Results flagged for a closer look

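A sample stood apart from the other 3 of its group by Dixon's criterion in 3 of 60 groups examined, and chance alone flags about 1 in 20. Among vehicle GFP+ arrays the negative control median was 7.28 in pool 2 and 6.22 to 6.38 in pools 1, 3 and 4. Kcnmb3, among the probe sets most like S100a5, had 14.43 in odor GFP+ cells of pool 3, against 14.93 to 14.99 in the others. S100a3, a neighbour of S100a5, had 6.01 in vehicle GFP- cells of pool 1, against 6.52 to 6.62 in the others.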

How the results depend on the processing

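S100a5, Pcp4l1 and Kcnn2 passed as higher in GFP+ cells under all 18 alternatives in each sort; the alternative that sets mature neuron markers equal was chosen after seeing the data. The calls of Lrrc3b and Kirrel2 depended on the settings named beside them, and the cause was not tested. Between 3 and 4 of the 6 genes were higher in the vehicle sort and 3 to 5 in the odor sort when a pool or the array of vehicle GFP+ replicate 2 was left out. No gene passed in an odor comparison under any alternative run. With the pool as a replicate block, 5 of the 6 genes were higher in each sort. Kirrel2 joined (adjusted p = 0.0249 and 0.00732), and the block changed no other call of these genes. The 5 include S100a5, which was sorted for. With the pool as a block, 2119 of all probe sets were higher in the vehicle sort, in place of 2074. The odor sort had 2424 higher, in place of 2518. With the replicate number as a block, 4 probe sets passed in odor against vehicle GFP+ cells, in place of 17. In GFP- cells, where the number was taken to pair pools, 1 passed as higher and 10 as lower with this block. Pool means could not be fitted without the GFP+ array of vehicle pool 2 alone. The signs of small differences turned. For Rasgrp4 the vehicle sort gave 0.24 with array medians set equal and 0.019 with quantile normalization; the odor sort gave -0.053 with receptor medians set equal, -0.028 with array weights, -0.24 with mature neuron markers set equal and -0.12 to 0.12 with a pool left out. With a pool left out, Kirrel2 in GFP- cells ranged from -0.14 to 0.62, and the difference of the differences from -0.12 to 0.43 for Kirrel2, -0.063 to 0.23 for Pcp4l1, -0.046 to 0.092 for Lrrc3b, -0.023 to 0.083 for Kcnn2 and -0.0053 to 0.25 for Rasgrp4. With mature neuron markers set equal the latter was -0.023 for Lrrc3b and -0.0033 for Kcnn2. The 2074 higher calls of the vehicle sort became 13003 with array medians, 515 with receptor medians, 3665 with quantile normalization and 673 with mature neuron markers. The 2518 of the odor sort became 13098, 865 (with 2414 lower), 3594 (with 2521 lower) and 580 (with 3979 lower in place of 2649). They became 1648 with the filter on low values. With a pool or array left out they numbered 1233 to 3135, lowest without odor pool 2 and at 1414 without odor pool 3. With the odor, GFP+ calls numbered 7 to 15 with a pool or array left out, 6 with only the arrays compared and 11 with mature neuron markers; GFP- calls 7 to 15 in place of 11, 17 with receptor medians and 19 with array weights. Calls for the difference of the differences numbered 22 with receptor medians in place of 14, and for pool means 1 to 5 with a pool left out in place of 4, and 8 with receptor medians or the pool as a random block. Rasgrp4 had the lowest signal of the 6 genes, less than 1 SD of the negative controls above their median on at least 1 vehicle GFP+ array.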
